A study of Mus musculus with 12 samples.

Results

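The genes described here are 32 genes of sugar breakdown and of the response to low oxygen, chosen by symbol and found among the 55414 Ensembl mouse gene identifiers of the counts table. They comprise 14 glycolytic enzymes, 6 carriers and flux regulators and 9 hypoxia targets that are not glycolytic. The other 3 genes are the 2 hypoxia-inducible factor (HIF) subunits Hif1a and Epas1, with the hydroxylase Egln2. They were measured by RNA sequencing of whole liver and whole lung from wild-type (WT) mice of the strain C57BL/6J, collected 6 h after sham surgery or CLP. CLP stands in this field for cecal ligation and puncture, which lets gut bacteria into the abdominal cavity and serves as a model of sepsis. The 4 groups were sham liver, CLP liver, sham lung and CLP lung, with 3 libraries each and no other genetic change or agent in the labels. The labels give no age or sex and do not state that different mice gave the 3 libraries of a group, and the p-values then reflect only sample-to-sample spread, which may be technical.

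Glycolysis turns glucose into pyruvate, and lactate dehydrogenase turns pyruvate into lactate when oxygen is scarce or when cells run glycolysis fast, as activated neutrophils and macrophages do. HIF is a pair of proteins whose alpha subunit (HIF-1 alpha from Hif1a, HIF-2 alpha from Epas1) is marked for destruction by the oxygen-dependent EGLN hydroxylases. When oxygen falls the alpha subunit persists and binds short DNA motifs near its targets, which include most glycolytic enzymes, glucose and lactate carriers, and genes outside metabolism. Toll-like receptor and NF-kB signals also raise Hif1a transcription. In the liver, hepatocytes use a different set of isoforms (Pfkfb1 and Pklr among them) from those of most other cells.

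Total counts per library ran from 10559895 to 15854117, so 3 counts came to 0.179 to 0.308 CPM, the count relative to a library size scaled within each organ, so that levels compare only roughly between organs. Markers matched the organs: summed hepatocyte markers were 75010 to 124300 CPM in liver against 435 to 560.1 in lung, and summed alveolar markers were 24670 to 32140 CPM in lung against 131 to 203 in liver. The 13 neutrophil markers summed to 18.4 to 20.6 CPM in sham liver, where Camp and Ltf were at 0, and to 180.3 to 259 CPM in CLP liver, where 11 of 11 tested rose. In lung they summed to 1037 to 1155 CPM in sham and 7437 to 10780 CPM in CLP libraries, and 13 of 13 rose. The 10 monocyte and macrophage markers went from 146 to 163 up to 188 to 273 CPM in liver, and from 298 to 322 up to 741 to 1055 CPM in lung, where 5 and 9 of 10 rose and 1 and 0 fell. The 10 endothelial markers fell in 4 of 10 genes and rose in 1 of 10 in liver, and fell in 7 of 10 and rose in 1 of 10 in lung, where their sum was 4474 to 4853 CPM in sham and 3701 to 3946 CPM in CLP libraries. Of the erythroid markers tested, 0 of 6 changed in liver and 4 of 6 fell in lung. Alveolar markers rose in 7 of 9 tested in CLP liver at low levels, with Sftpc going from 1.02 ± 0.762 to 7.45 ± 2.48 CPM (SD, n = 3), while 1 of 12 rose and 3 fell in CLP lung. Over all genes tested, 21.4% were called higher and 21.0% lower after CLP in liver, and 23.9% and 24.9% in lung. The alveolar falls in lung, at 25%, were near that share, and the rises there, at 8.33%, below it. In whole tissue, fewer cells of a type and less RNA per cell cannot be told apart. The part these cell types play in the values reported was not tested.

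After CLP, 6 of the 14 glycolytic enzymes rose in liver and 10 of 14 in lung. Of the hypoxia targets outside glycolysis, 1 of 8 tested rose in liver, and 2 of 9 rose and 3 fell in lung. In a wider list of other glycolysis and pyruvate genes, 4 of 29 rose (13.8%) and 9 fell (31%) in liver. In lung 6 of 31 rose (19.4%) and 7 fell (22.6%), both below the shares of all genes there, 23.9% higher and 24.9% lower. In liver, 31 of the 32 genes had enough counts to test, and 12 rose and 0 fell (edgeR quasi-likelihood test, adjusted p below 0.05 after Benjamini and Hochberg). Of all 12392 genes tested in liver, 42.3% were called, 21.4% higher and 21.0% lower, so 12 of 31 (38.7%) is above the share for rises while the absence of falls is below the share for falls. In lung, 19 of 32 genes rose (59.4%) and 4 fell (12.5%), against 48.9% of 15441 genes called, 23.9% higher and 24.9% lower. The median log2 fold change of CLP against sham was 0.57 over the 31 genes in liver and 0.67 over the 32 in lung, where the median of all genes tested was -0.01 and -0.03. Counted by libraries alone, all CLP libraries lay above all sham libraries for 15 of the genes and below them for 2 in liver, and for 19 and 4 in lung. Over all genes tested 55.7% did not overlap in liver (28.1% above, 27.6% below) and 59.7% in lung (28.6% above, 31.1% below). The gene not tested in liver was Ankrd37, which had 2 to 18 counts per library.

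By role, 0 of the 14 enzymes fell in either organ, and the carriers and flux regulators gave 3 rises of 6 in liver and 5 of 6 in lung, again with 0 falls. The median log2 fold changes were 0.63 and 0.75 for the enzymes and 1.14 and 1.12 for the carriers and flux regulators, in liver and lung. The hypoxia targets outside glycolysis had medians of -0.04 and 0.07. These counts describe the groups, and the difference between the enzymes and the other hypoxia targets was not tested as such. In the summed levels, the 14 enzymes held 1495 to 1892 CPM in sham and 1988 to 2170 CPM in CLP liver, and 1178 to 1230 CPM in sham and 1528 to 1927 CPM in CLP lung. Most of the liver sums was Ldha, at 972 to 1412 CPM in sham and 1497 to 1640 CPM in CLP libraries. Its rise in liver did not pass (edgeR adjusted p = 0.0883). The 9 other targets held 180 to 186 CPM in sham and 145 to 221 CPM in CLP liver, and 433 to 441 CPM in sham and 456 to 578 CPM in CLP lung. The lung sums include Ndrg1, which went from 40.5 ± 1.96 to 190.1 ± 82.8 CPM (SD, n = 3). Of the 9 targets, 3 fell in lung and 4 did not pass, so the sum does not show a rise of the group.

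**Figure D1:**
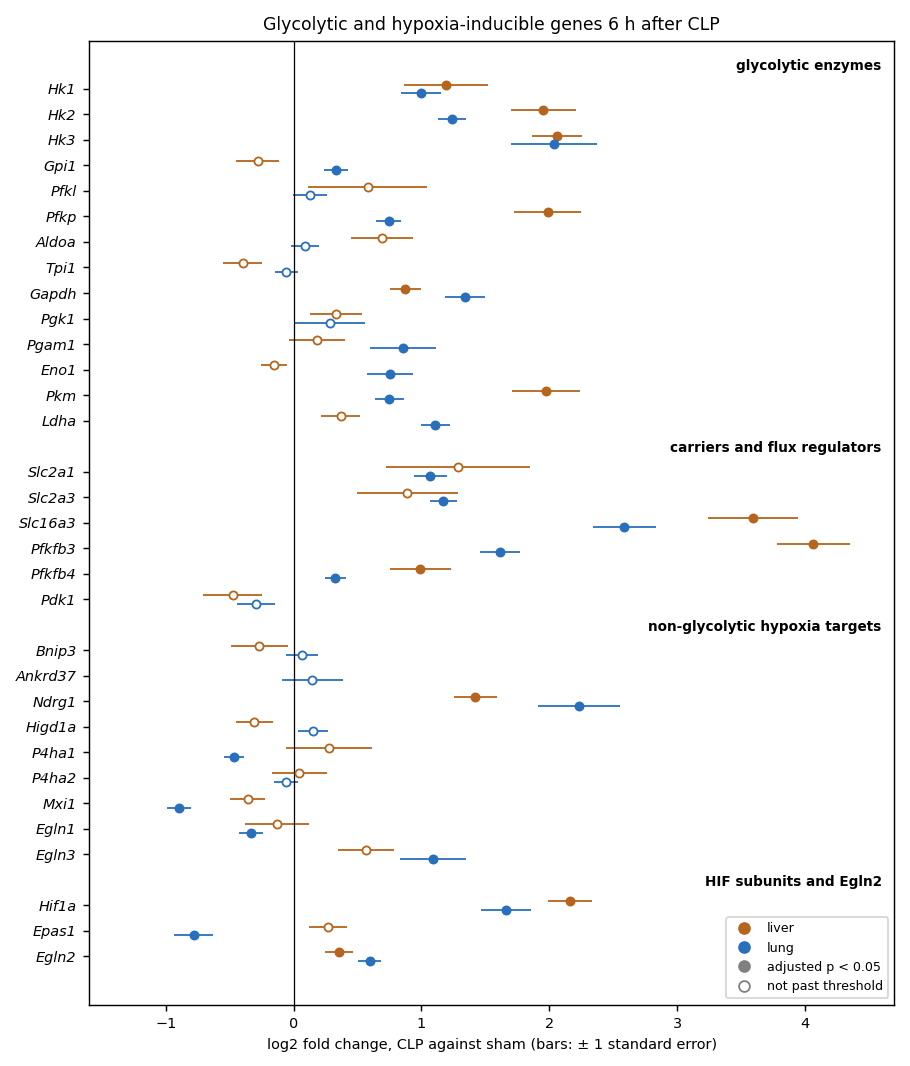
Log2 fold change of CLP against sham (x axis) with its standard error for each of the 32 genes (y axis), by organ. Filled points passed the adjusted p threshold of 0.05. Pfkfb3 and Slc16a3 in liver lie farthest to the right, and Mxi1, Epas1, P4ha1 and Egln1 in lung are the filled points to the left of 0.

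The promoters of these genes were read for the core of the HIF motif, ACGTG or GCGTG on either strand, in the 250 bases before each RefSeq start site (GRCm38.p6). Promoters were found for 29 of the 32 genes, 41 promoters in all, and none for Slc2a3, Ndrg1 and Epas1. The core stood in 34 of the 41 (82.9%), against 52.1% of the promoters of genes tested in either organ and 38.6% of all 32851 promoters in the table. It stood in 76.2% of the enzyme promoters, 85.7% of those of carriers and flux regulators and 9 of the 10 promoters of the hypoxia targets outside glycolysis. The genes were chosen for their known roles, response to low oxygen among them, so the higher share is not an independent result. Close start sites, as in Eno1 and Aldoa, also count the same match more than once. A match is a description of letters, not a site that HIF was measured on. The promoters of the genes with the 2 largest rises in liver and of 2 hypoxia targets that did not rise are printed 5′ to 3′, with the core in capitals; CACGTG holds the core on both strands, and counts as 2 overlapping matches.
Pfkfb3, chr2:11553930-11554179, minus strand: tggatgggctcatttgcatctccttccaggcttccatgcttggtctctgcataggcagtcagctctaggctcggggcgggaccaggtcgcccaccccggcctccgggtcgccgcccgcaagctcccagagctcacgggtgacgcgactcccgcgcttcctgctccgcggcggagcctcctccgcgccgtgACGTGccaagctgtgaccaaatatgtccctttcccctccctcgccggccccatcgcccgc
Pfkfb3, other start site, chr2:11502091-11502340, minus strand: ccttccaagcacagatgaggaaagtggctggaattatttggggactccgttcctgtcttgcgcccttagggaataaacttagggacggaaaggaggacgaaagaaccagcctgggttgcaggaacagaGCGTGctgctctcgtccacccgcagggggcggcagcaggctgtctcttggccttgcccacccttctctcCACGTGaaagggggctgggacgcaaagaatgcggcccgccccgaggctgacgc
Slc16a3, chr11:120948817-120949066, plus strand: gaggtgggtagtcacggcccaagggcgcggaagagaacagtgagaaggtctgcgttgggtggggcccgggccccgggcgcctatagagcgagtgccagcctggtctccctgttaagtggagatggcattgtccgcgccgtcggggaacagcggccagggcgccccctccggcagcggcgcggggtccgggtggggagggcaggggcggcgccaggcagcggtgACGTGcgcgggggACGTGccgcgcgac
Bnip3, chr7:138909507-138909756, minus strand: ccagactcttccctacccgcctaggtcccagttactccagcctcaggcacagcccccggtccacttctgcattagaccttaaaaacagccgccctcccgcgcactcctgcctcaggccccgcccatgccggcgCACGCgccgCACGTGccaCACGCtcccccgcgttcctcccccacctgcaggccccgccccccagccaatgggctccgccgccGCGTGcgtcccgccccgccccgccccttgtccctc
P4ha1, chr10:59323046-59323295, plus strand: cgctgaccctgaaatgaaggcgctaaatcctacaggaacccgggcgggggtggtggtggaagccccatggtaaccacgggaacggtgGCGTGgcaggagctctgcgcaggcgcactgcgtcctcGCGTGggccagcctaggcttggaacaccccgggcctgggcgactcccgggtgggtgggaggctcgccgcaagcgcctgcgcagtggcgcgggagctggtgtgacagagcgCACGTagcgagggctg
The core was found 1 time before the first of the 2 start sites of Pfkfb3 in the table and 3 times before the other, 2 times for Slc16a3, 5 times for Bnip3 and 3 times for P4ha1. Bnip3 did not pass the threshold in either organ, and P4ha1 fell in lung.

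Of the 32 genes, Pfkfb3 had the largest log2 fold change in liver. The enzyme it encodes makes and breaks the sugar bisphosphate that strongly activates phosphofructokinase, and this isoform favours making it. Library values are given in the order of replicates 1, 2 and 3 throughout. In liver Pfkfb3 stood at 26.1, 19.9 and 35.0 CPM in the sham libraries and at 593, 351 and 416 CPM in the CLP libraries. In lung it stood at 211, 242 and 261 CPM in sham and at 860.2, 749 and 577.4 CPM in CLP. Every CLP library lay above every sham library in each organ. The log2 fold change was 4.07 ± 0.28 (standard error) in liver (edgeR, Benjamini-Hochberg adjusted p = 6.5e-05) and 1.62 ± 0.16 in lung (adjusted p = 0.000174), and the smaller change in lung began from a higher sham level.

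Pfkfb4, another isoform, was at 1.38, 1.48 and 1.61 CPM in sham and 3.30, 3.13 and 2.46 CPM in CLP libraries. In lung it was at 71.1, 79.0 and 71.9 CPM in sham and 90.7, 86.7 and 101.2 CPM in CLP. The groups did not overlap in either organ, and the log2 fold change was 0.99 ± 0.24 in liver (edgeR, Benjamini-Hochberg adjusted p = 0.0111) and 0.33 ± 0.09 in lung (adjusted p = 0.0136). The lung call was lost without sham replicate 1 (adjusted p = 0.0591), with scaling by library totals (log2 fold change 0.22, 0.0615) and with upper-quartile scaling (0.22, 0.0666). Within the PFKFB family, measured as each gene's share of the family's counts per exon length, Pfkfb3 went from 19.5% ± 4.90 to 87.4% ± 3.89 (SD, n = 3) in liver while Pfkfb1, the hepatocyte isoform, went from 62.0% ± 3.46 to 5.45% ± 1.67. In lung, Pfkfb3 went from 57.8% ± 2.54 to 77.2% ± 4.8 and Pfkfb4 from 28.0% ± 1.81 to 15.6% ± 3.38. None of these ranges overlapped, and an exact permutation test of 3 against 3 libraries cannot go below 0.10.

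Slc16a3 encodes MCT4, the carrier that exports lactate from glycolytic cells. It was at 0.363, 0.444 and 0.419 CPM in sham liver, which is 5, 6 and 7 counts, and at 5.23, 6.49 and 3.28 CPM in CLP liver. In lung it was at 13.5, 15.2 and 18.7 CPM in sham and 98.1, 122 and 64.9 CPM in CLP libraries. CLP libraries were higher throughout, by a log2 fold change of 3.59 ± 0.35 in liver (edgeR, Benjamini-Hochberg adjusted p = 0.000181) and 2.59 ± 0.24 in lung (adjusted p = 0.000244).

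The glucose carriers rose in lung. Slc2a1 (GLUT1, the widespread basal carrier) was at 31.6, 34.5 and 26.2 CPM in sham and 67.3, 70.7 and 55.5 CPM in CLP lung. Slc2a3 (GLUT3, a high-affinity carrier of neurons and leukocytes) was at 24.6, 22.4 and 22.9 CPM in sham and 51.4, 59.8 and 46.2 CPM in CLP lung. Neither gene's groups overlapped, and the log2 fold changes were 1.07 ± 0.13 and 1.17 ± 0.11 (edgeR, Benjamini-Hochberg adjusted p = 0.000408 and 0.000146). In liver, Slc2a1 was at 7.34, 6.29 and 3.35 CPM in sham and at 9.99, 24.9 and 5.85 CPM in CLP libraries, so that 1 CLP library stood far above the other CLP libraries, and the adjusted p was 0.113 by edgeR. It passed in 4 of 13 alternatives (adjusted p 0.0203 to 0.0394), among them DESeq2 (0.0203), the fit on all 12 libraries (0.0381) and without CLP replicate 3 (log2 fold change 1.64, 0.0394). Leaving out CLP replicate 2 gave 0.52 (edgeR adjusted p = 0.297). Slc2a3 in liver, at 0.598 to 2.48 CPM, had a log2 fold change of 0.89 ± 0.40 (edgeR adjusted p = 0.105), and passed in the fit on all 12 libraries (0.0366). Pdk1, a pyruvate dehydrogenase kinase, had log2 fold changes of -0.48 ± 0.23 in liver and -0.29 ± 0.15 in lung (edgeR adjusted p = 0.132 and 0.138). In liver it passed as a fall with library totals (-0.67, edgeR adjusted p = 0.0413) and with replicate number as a block (-0.48, edgeR adjusted p = 0.0235). Without lung CLP replicate 3 it passed in lung at -0.46 (edgeR adjusted p = 0.00179).

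The hexokinases rose in both organs. The enzymes from Hk1, Hk2 and Hk3 phosphorylate glucose on entry, Hk3 being a form of leukocytes. In liver, Hk2 was at 1.53, 2.37 and 1.495 CPM in sham and 6.69, 8.42 and 5.64 CPM in CLP libraries. Hk3 was at 2.47, 2.96 and 3.23 CPM in sham and 11.3, 14.7 and 10.4 CPM in CLP liver. Neither gene overlapped between groups in liver, and the log2 fold changes were 1.95 ± 0.26 and 2.06 ± 0.19 (edgeR, Benjamini-Hochberg adjusted p = 0.000595 and 0.000145). Hk1 was at 2.83, 2.74 and 4.84 CPM in sham and 6.69, 11.5 and 5.74 CPM in CLP liver, a log2 fold change of 1.19 ± 0.33 (edgeR adjusted p = 0.0206). That call was lost without sham replicate 1 (adjusted p = 0.0691) and without sham replicate 2 (adjusted p = 0.0697).

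In lung the same enzymes rose from higher levels. Hk1 was at 78.9, 74.2 and 74.7 CPM in sham and 161, 179 and 114 CPM in CLP lung, Hk2 at 37.9, 40.5 and 38.0 against 103, 77.8 and 93.4 CPM, and Hk3 at 9.01, 7.85 and 12.7 against 55.3, 42.8 and 22.9 CPM. CLP libraries lay above sham libraries for each hexokinase, by log2 fold changes of 1.00 ± 0.15, 1.24 ± 0.11 and 2.04 ± 0.34 (edgeR, Benjamini-Hochberg adjusted p = 0.00143, 0.000121 and 0.0026). The summed neutrophil markers given above went up in the same libraries as Hk3, and their part in its rise was not tested.

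Phosphofructokinase makes the step that commits glucose to glycolysis, and Pfkp and Pfkl are its platelet and liver forms. Pfkp was at 3.85, 2.30 and 1.91 CPM in sham and 11.9, 10.9 and 8.82 CPM in CLP liver. Lung held 73.9, 68.6 and 72.1 CPM in sham and 136, 115 and 109 CPM in CLP libraries. The groups did not overlap, and the log2 fold changes were 1.99 ± 0.26 in liver and 0.74 ± 0.10 in lung (edgeR, Benjamini-Hochberg adjusted p = 0.00062 and 0.000562). Pfkl in liver stood at 65.4 CPM in CLP replicate 2 against 23.2 and 18.8 CPM in the other CLP libraries and 22.4 to 26.8 CPM in sham. Its log2 fold change in liver was 0.58 ± 0.46 (edgeR adjusted p = 0.357), and -0.19 without that library. In lung it was 0.13 ± 0.13 (adjusted p = 0.472), and 0.30 without CLP replicate 3 (edgeR adjusted p = 0.0171). As shares of the phosphofructokinase family per exon length, Pfkp went from 21.8% ± 0.872 to 39.4% ± 4.37 in lung while the muscle form Pfkm went from 43.0% ± 1.37 to 19.5% ± 4.18 (SD, n = 3). Exons of Pfkp overlap Pitrm1 on the other strand, and Hk3 overlaps Unc5a, so without strand in the counting the reads of these pairs are not separable.

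**Figure D2:**
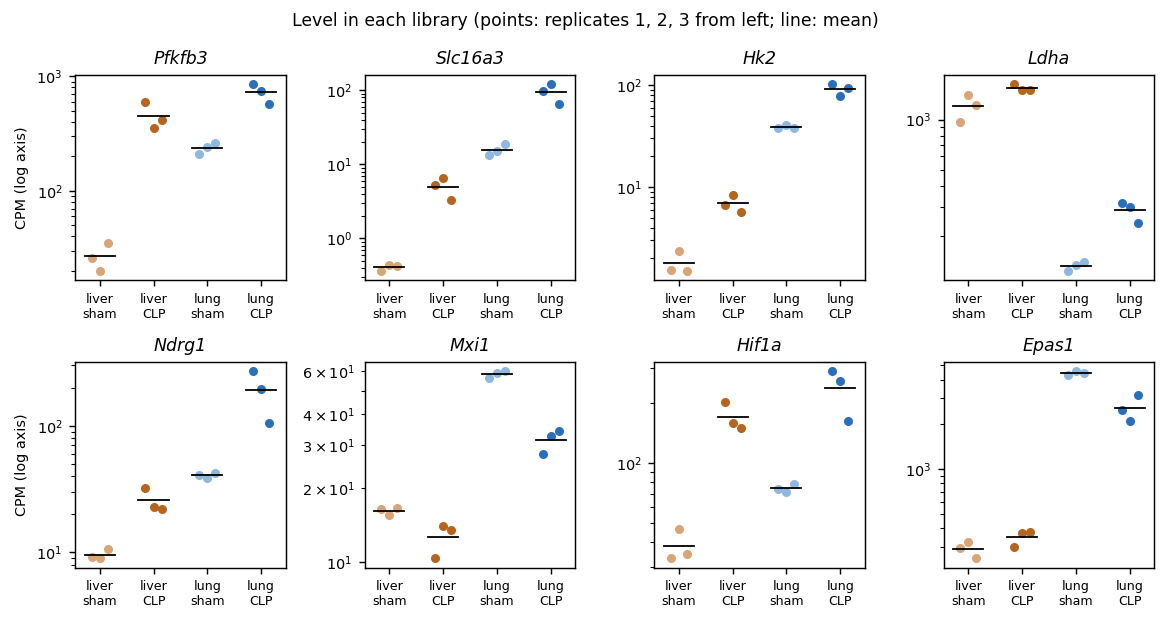
CPM on a log axis (y axis) of selected genes in each library, by group (x axis); points are replicates 1, 2 and 3 from left to right and lines are means. For Pfkfb3 the liver sham libraries lie between 19.9 and 35.0 CPM and the liver CLP libraries between 351 and 593 CPM, while Epas1 goes down in lung.

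Several other enzymes did not pass. Aldolase Aldoa (log2 fold change 0.69 ± 0.24 in liver, 0.09 ± 0.11 in lung), triose phosphate isomerase Tpi1 (-0.40 ± 0.15 and -0.06 ± 0.09) and phosphoglycerate kinase Pgk1 (0.33 ± 0.20 and 0.28 ± 0.27) did not pass the threshold in either organ. Phosphoglucose isomerase Gpi1 did not pass it in liver (-0.28 ± 0.17) and rose in lung by 0.33 ± 0.10 (edgeR, Benjamini-Hochberg adjusted p = 0.0219), a call lost without sham replicate 1 (adjusted p = 0.0902) or sham replicate 2 (0.0691). It was also lost with library totals (log2 fold change 0.23, edgeR adjusted p = 0.0869), upper quartiles (0.22, 0.0941) and the fit on all 12 libraries (0.115). Aldoa in liver, with an edgeR adjusted p of 0.0536, passed in 4 of 13 alternatives (adjusted p 0.00755 to 0.0451), among them DESeq2 (0.017), the fit on all 12 libraries (0.0167) and without CLP replicate 3 (log2 fold change 0.91, 0.00755). Tpi1 in liver was at 185, 194 and 195 CPM in sham and 134, 179 and 122 CPM in CLP libraries, which did not overlap, with a log2 fold change whose edgeR adjusted p was 0.0627. It passed as a fall in 7 of the 13 alternatives (adjusted p 0.00498 to 0.0476), among them limma-voom and both other scalings, and stood at -0.57 without CLP replicate 2. The sign for Aldoa in lung was negative under scaling by library totals (-0.02) and by upper quartiles (-0.02).

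Gapdh, which makes the NADH of glycolysis, was at 15.8, 18.7 and 16.0 CPM in sham and 32.2, 27.0 and 33.4 CPM in CLP liver, and at 5.44, 5.46 and 5.14 CPM in sham and 14.8, 14.7 and 11.1 CPM in CLP lung. CLP libraries were higher throughout, by log2 fold changes of 0.87 ± 0.12 and 1.34 ± 0.16 (edgeR, Benjamini-Hochberg adjusted p = 0.000886 and 0.000345). Gapdh is known as an abundant transcript of most tissues. In the reference transcripts, 24.7% of the 50-base windows of Gapdh also occur letter for letter in transcripts of other genes, as do 53.9% of those of Pgk1, 36.2% of Pgam1, 26.0% of Eno1, 25.8% of Pkm and 16.5% of Bnip3, against at most 9.0% for the other genes of the 32. How reads that map to several places were counted is not given in the sources used here. The levels of these 6 genes, and family shares computed from them, are therefore uncertain.

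Phosphoglycerate mutase Pgam1 was at 2.44, 2.47 and 1.57 CPM in sham and 4.81, 3.56 and 3.27 CPM in CLP lung. It rose by a log2 fold change of 0.85 ± 0.26 (edgeR, Benjamini-Hochberg adjusted p = 0.0252), and the call was lost without CLP replicate 1 (adjusted p = 0.0903), sham replicate 1 (0.0505) or sham replicate 3 (0.0779). In liver its log2 fold change was 0.18 ± 0.22. Enolase Eno1, which forms phosphoenolpyruvate, was at 74.2, 66.9 and 69.3 CPM in sham and 65.2, 55.9 and 68.0 CPM in CLP liver. Lung held 20.2, 22.9 and 24.1 CPM in sham and 40.1, 45.7 and 27.3 CPM in CLP libraries. The liver groups overlapped (log2 fold change -0.15 ± 0.10, edgeR adjusted p = 0.266) and the lung groups did not (0.75 ± 0.18, adjusted p = 0.0106). Its share of the enolase family per exon length in lung went from 24.5% ± 1.77 to 43.4% ± 6.18 (SD, n = 3). The muscle form Eno3 went from 70.8% ± 2.25 to 52.9% ± 6.27. These shares are uncertain, since 26.0% of the 50-base windows of Eno1 also occur in other genes. They do not show which enolase is the more abundant in lung.

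Pkm encodes the pyruvate kinase of most tissues outside liver, where Pklr serves. It was at 9.73, 7.18 and 6.58 CPM in sham and 28.0, 42.0 and 21.8 CPM in CLP liver. Lung held 195, 191 and 197 CPM in sham and 373, 327 and 278 CPM in CLP libraries. CLP libraries were higher throughout, by log2 fold changes of 1.98 ± 0.26 in liver and 0.75 ± 0.11 in lung (edgeR, Benjamini-Hochberg adjusted p = 0.000965 and 0.00111). Its share of the 2 pyruvate kinases in liver was 3.29%, 3.01% and 1.51% in sham and 11.4%, 34.0% and 7.34% in CLP libraries, so CLP replicate 2 set most of the mean of 17.6% ± 14.4 (SD, n = 3). Exons of Pkm also overlap Gm49759 on the same strand, and 25.8% of its 50-base windows occur in other genes, so its share is uncertain.

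Ldha, the lactate dehydrogenase subunit that favours lactate, was at 972, 1412 and 1221 CPM in sham and 1640, 1497 and 1513 CPM in CLP liver. In lung it was at 123, 133 and 139.5 CPM in sham and 313, 299 and 239.7 CPM in CLP libraries. CLP libraries lay above sham libraries in each organ, by a log2 fold change of 0.37 ± 0.15 in liver (edgeR adjusted p = 0.0883) and 1.11 ± 0.12 in lung (adjusted p = 0.00022). The liver value passed without sham replicate 2 (log2 fold change 0.50, edgeR adjusted p = 0.04). In lung the share of Ldha against its partner subunit Ldhb per exon length went from 39.8% ± 1.13 to 62.6% ± 5.0 (SD, n = 3), and in liver Ldha already held 99.8% of the pair in sham libraries.

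**Figure D3:**
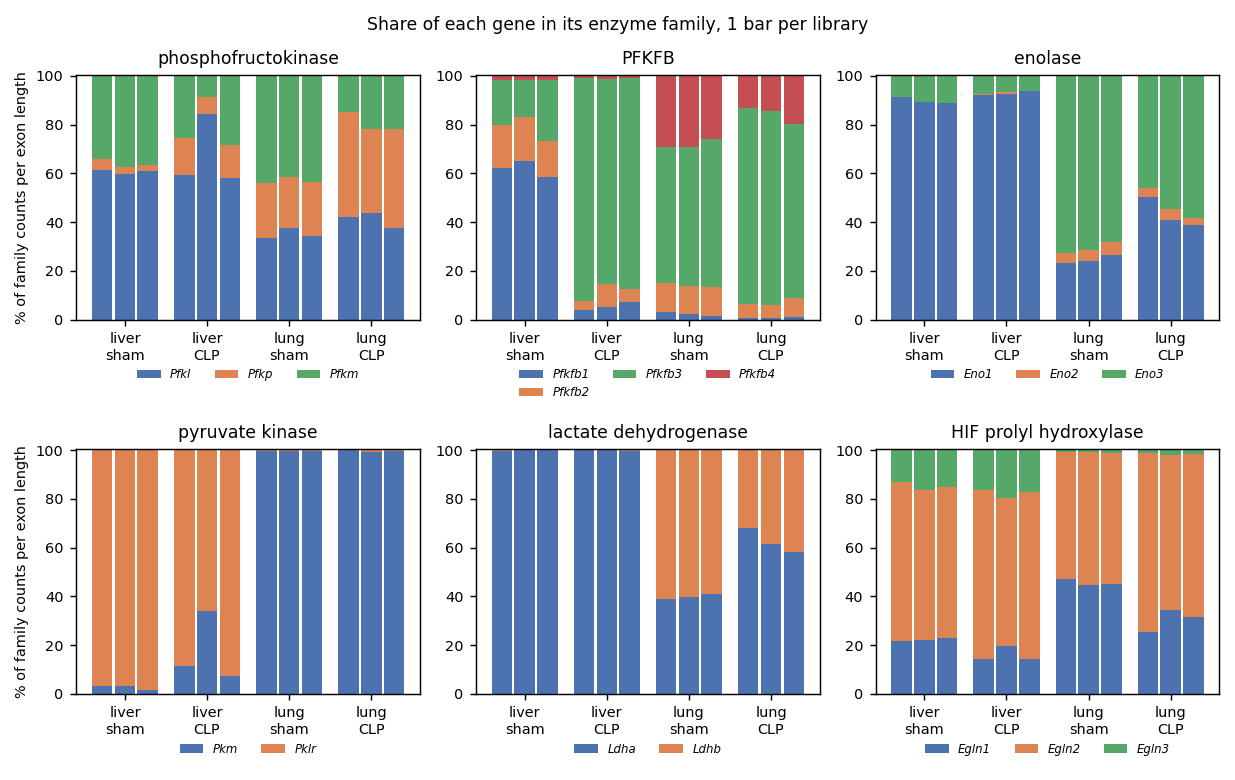
Share of each gene in its enzyme family (y axis, percent of the family's counts per exon length), 1 bar per library, by group (x axis). In liver the PFKFB bars go from mostly Pfkfb1 in sham to mostly Pfkfb3 in CLP (87.4% on average), and in lung Ldha goes from 39.8% to 62.6% of the lactate dehydrogenase pair.

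Of the hypoxia targets outside glycolysis, Ndrg1 rose in both organs. Ndrg1 is a stress-responsive gene linked to differentiation and lipid handling. It was at 9.23, 8.96 and 10.6 CPM in sham and 32.1, 22.9 and 22.1 CPM in CLP liver, and at 40.5, 38.5 and 42.4 CPM in sham and 269.9, 196 and 105 CPM in CLP lung. The groups did not overlap, and the log2 fold changes were 1.42 ± 0.17 and 2.23 ± 0.32 (edgeR, Benjamini-Hochberg adjusted p = 0.000376 and 0.00163). Egln3, the HIF hydroxylase most strongly induced by HIF in many cells, was at 1.06, 1.20 and 1.27 CPM in sham and 2.02, 3.07 and 2.45 CPM in CLP lung, a rise of 1.09 ± 0.26 on the log2 scale (edgeR adjusted p = 0.00877). In liver it was at 7.92 to 10.1 CPM in sham and 10.5, 18.4 and 11.6 CPM in CLP libraries (0.57 ± 0.22, edgeR adjusted p = 0.0695). It passed there in 4 of 13 alternatives (adjusted p 0.0116 to 0.0401), among them no low-count filter (0.0116), the fit on all 12 libraries (0.0401) and without CLP replicate 1 (log2 fold change 0.73, 0.034).

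Other hypoxia targets fell in lung or did not pass. Mxi1, a transcription factor that opposes MYC, was at 56.4, 59.2 and 60.0 CPM in sham and 27.5, 32.6 and 34.3 CPM in CLP lung. Its log2 fold change there was -0.90 ± 0.10 (edgeR, Benjamini-Hochberg adjusted p = 0.00025), a fall with no overlap between groups. In liver it was at 16.4, 15.6 and 16.7 CPM in sham and 10.4, 14.1 and 13.5 CPM in CLP libraries, a log2 fold change of -0.36 ± 0.14 (edgeR adjusted p = 0.0671) that passed in 4 of 13 alternatives (adjusted p 0.0151 to 0.0411), namely both other scalings, the fit on all 12 libraries and without CLP replicate 2 (-0.45, 0.0411). P4ha1, a collagen prolyl hydroxylase subunit, fell in lung from 96.6 ± 7.36 to 70.0 ± 1.31 CPM (SD, n = 3, log2 fold change -0.46 ± 0.08, edgeR adjusted p = 0.00189). Egln1, the main oxygen sensor of the HIF system, fell in lung from 81.3 ± 1.48 to 64.6 ± 7.51 CPM (log2 fold change -0.33 ± 0.09, edgeR adjusted p = 0.019). The Egln1 call was lost without sham replicate 1 (adjusted p = 0.061), 2 (0.0606) or 3 (0.0663). The fit on all 12 libraries lost both Egln1 (adjusted p = 0.153) and P4ha1 (0.0998).

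The remaining targets passed in neither organ. Bnip3, a receptor for the removal of mitochondria, had log2 fold changes of -0.27 ± 0.22 in liver and 0.07 ± 0.13 in lung, Higd1a, a respiratory chain protein, had -0.31 ± 0.15 and 0.15 ± 0.11, and P4ha2, the sister subunit of P4ha1, had 0.04 ± 0.21 and -0.06 ± 0.09. Ankrd37 was at 2.84 to 4.71 CPM in sham and 3.57 to 4.12 CPM in CLP lung (log2 fold change 0.15 ± 0.24). In liver, P4ha1 (0.27 ± 0.34) and Egln1 (-0.13 ± 0.25) did not pass, and without CLP replicate 2 they stood at -0.26 and -0.52, the latter past the threshold (edgeR adjusted p = 0.00926). The signs of Bnip3 in lung and of P4ha2 in liver were turned by scaling to library totals (-0.04 and -0.15) or upper quartiles (-0.05 and -0.05).

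Both HIF alpha subunits changed in lung, in opposite directions. Hif1a was at 33.3, 46.6 and 34.8 CPM in sham and 203, 159 and 150.2 CPM in CLP liver, and at 74.3, 71.7 and 78.4 CPM in sham and 288, 259 and 163 CPM in CLP lung. No CLP library overlapped a sham library, and the log2 fold changes were 2.16 ± 0.17 in liver and 1.66 ± 0.20 in lung (edgeR, Benjamini-Hochberg adjusted p = 7.2e-05 and 0.000548). Epas1, a HIF alpha subunit abundant in endothelium, was at 4300, 4559 and 4436 CPM in sham and 2483, 2117 and 3131 CPM in CLP lung. It fell there by 0.78 ± 0.15 on the log2 scale (edgeR adjusted p = 0.00362). Summed endothelial markers went from 4474 to 4853 CPM down to 3701 to 3946 CPM in these libraries. They stood at 3915, 3946 and 3701 CPM in the CLP lung libraries, and their part in the fall of Epas1 was not tested. In liver Epas1 was at 296, 322 and 250.7 CPM in sham and 298, 370 and 378 CPM in CLP libraries, which overlapped (0.27 ± 0.15, adjusted p = 0.168). As a share of the 2 alpha subunits per exon length, Hif1a went from 11.1% ± 1.29 to 31.9% ± 6.43 in liver and from 1.58% ± 0.0952 to 8.34% ± 3.15 in lung (SD, n = 3).

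Egln2, a HIF hydroxylase not known for induction by low oxygen, was at 71.7, 77.9 and 74.2 CPM in sham and 126, 103 and 108 CPM in CLP lung. It rose in lung, with a log2 fold change of 0.59 ± 0.09 (edgeR, Benjamini-Hochberg adjusted p = 0.0013) and in liver, with 0.36 ± 0.11 (adjusted p = 0.0312). The groups did not overlap in either organ. The liver call was lost without CLP replicate 2 (adjusted p = 0.064), sham replicate 1 (0.0649), 2 (0.0908) or 3 (0.0898), and with scaling by library totals (0.321) or upper quartiles (0.108). Among the 3 HIF hydroxylases in lung, the share of Egln1 per exon length went from 45.5% ± 1.17 to 30.5% ± 4.53 and that of Egln2 from 53.6% ± 1.12 to 67.9% ± 4.90 (SD, n = 3), with no overlap.

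The lung response minus the liver response was tested in a single model over the 12 libraries. It passed for 8 of the 32 genes, 2 higher and 6 lower in lung, against 17.7% of 16111 genes, 8.89% higher and 8.84% lower. Pfkfb3 rose less in lung, with a difference of -2.48 ± 0.32 in log2 fold change (edgeR, Benjamini-Hochberg adjusted p = 0.000295), as did Pfkp with -1.28 ± 0.26 (0.00455) and Pkm with -1.26 ± 0.30 (0.0112). Eno1 had a difference of 0.88 ± 0.22 (adjusted p = 0.0137), being higher after CLP in lung and not in liver. Epas1 had -1.08 ± 0.24 (adjusted p = 0.00778), lower in lung and not in liver. These 5 kept their call in each of the 18 alternatives. Ldha (0.72 ± 0.23, adjusted p = 0.0475), Pfkfb4 (-0.70 ± 0.19, 0.0239) and Mxi1 (-0.56 ± 0.17, 0.0378) lost theirs in 10, 11 and 12 of the 18. For Ldha, 9 of these left out 1 library each, with adjusted p of 0.0596 to 0.11, that is every library but liver CLP replicate 1, liver sham replicate 1 and lung CLP replicate 3. For Pfkfb4, leaving out liver CLP replicates 1 or 2, any liver sham library, lung CLP replicate 2 or lung sham replicate 2 gave 0.0512 to 0.13. For Mxi1, leaving out any library but liver CLP replicate 1 and lung CLP replicate 3 gave 0.0534 to 0.125. The other 24 genes did not pass, which does not show that they responded alike.

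The CLP libraries of each organ differed for these genes. Liver CLP replicate 2 was the highest of the 3 CLP libraries in 20 of the 32 genes and in 8 of the 9 hypoxia targets outside glycolysis, with 18 counts of Ankrd37 against 5 and 2, and P4ha1 at 15.3 CPM against 5.92 and 7.18. Without it, 11 genes rose and 3 fell in liver, the falls being Tpi1, Mxi1 and Egln1. Liver CLP replicate 3 was the lowest of the 3 in 19 of the 32 genes and in 10 of the 14 enzymes. Lung CLP replicate 3 was the lowest of the 3 in 19 of the 32 genes and in 13 of the 14 enzymes. Its Hif1a was at 163 CPM against 288 and 259, and its Ndrg1 at 105 against 269.9 and 196. Leukocyte markers differed among these libraries too. Summed neutrophil markers were 259 CPM in liver CLP replicate 2, close to 239 in replicate 1, with replicate 3 lowest at 180.3. They were 7437 CPM in lung CLP replicate 3 against 10050 and 10780. Summed monocyte and macrophage markers were 273 CPM against 188 and 217, and 741 CPM against 922 and 1055. Their part in the values of the 32 genes was not tested.

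**Figure D4:**
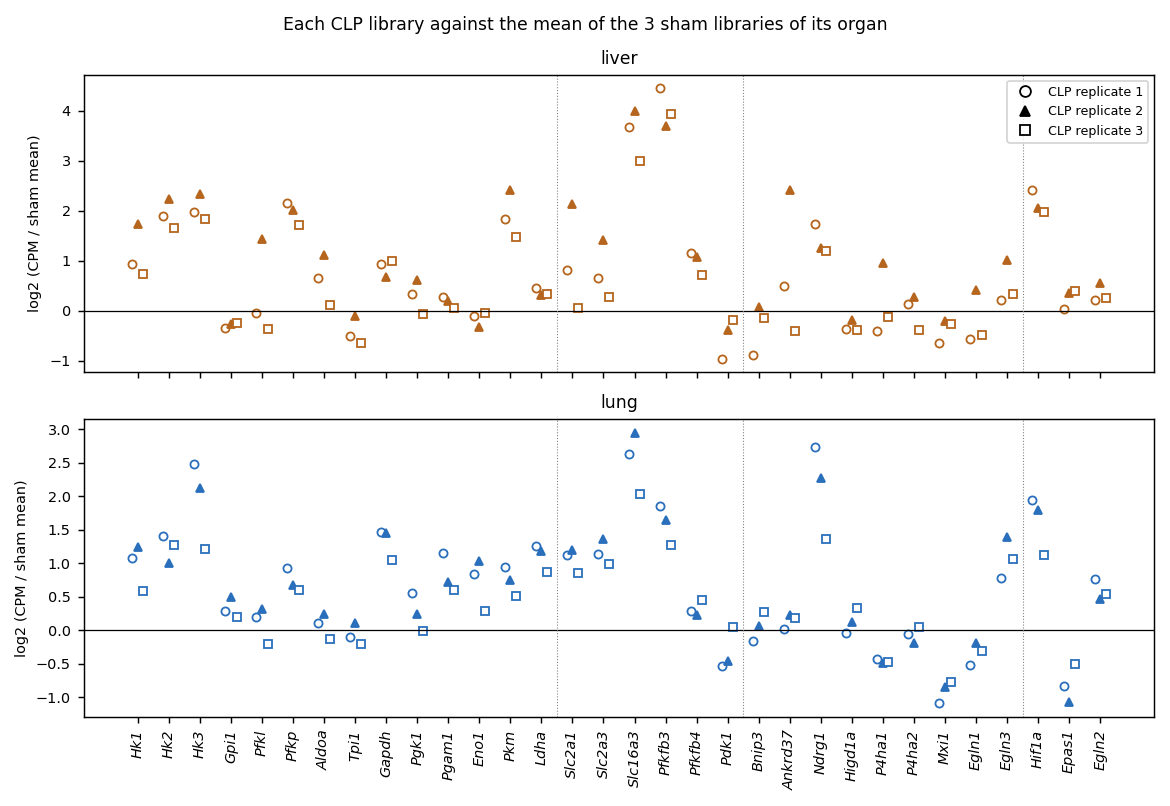
Log2 of the CPM of each CLP library over the mean of the 3 sham libraries of its organ (y axis) for each gene (x axis), liver above and lung below; symbols mark the replicate. In liver the filled symbols of CLP replicate 2 lie highest in 20 of the 32 genes, among them Pfkl, Slc2a1, P4ha1 and Egln1.

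Other genes of the same pathways were read from wider lists. Of 29 further genes of glycolysis and pyruvate use tested in liver, 4 rose and 9 fell (median log2 fold change -0.25), and in lung 6 of 31 rose and 7 fell (-0.11). These are 13.8% and 31% in liver, against 21.4% higher and 21.0% lower over all genes tested. In lung they are 19.4% and 22.6%, against 23.9% and 24.9%. The lowest p in liver belonged to the glucose carrier Slc2a6, which rose by 3.45 ± 0.30 on the log2 scale, the pyruvate dehydrogenase kinase Pdk2 (-1.55 ± 0.14) and Pfkfb1 (-1.66 ± 0.16), with edgeR Benjamini-Hochberg adjusted p of 0.000114, 0.000126 and 0.000148. In lung they were Adpgk, an ADP-dependent sugar kinase (1.14 ± 0.09), Pdk2 (-1.28 ± 0.12) and Pfkm (-1.26 ± 0.15), with adjusted p of 7.2e-05, 0.000145 and 0.000392.

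Of further hypoxia-inducible genes, 7 of 28 rose and 6 fell in liver (median log2 fold change 0.15) and 5 of 30 rose and 12 fell in lung (-0.04). The liver shares, 25% and 21.4%, were near those of all genes tested, 21.4% higher and 21.0% lower. In lung 16.7% rose and 40% fell, against 23.9% and 24.9%. In liver the lowest p belonged to the clock-linked repressor Bhlhe41 (1.83 ± 0.14), the membrane-binding protein Anxa2 (1.72 ± 0.20) and the vasodilator adrenomedullin Adm (2.37 ± 0.34), with edgeR Benjamini-Hochberg adjusted p of 6e-05, 0.000377 and 0.00091. In lung they were Bhlhe40 (1.59 ± 0.14), Zfp395 (-1.36 ± 0.15) and the HIF inhibitor Cited2 (-0.73 ± 0.11), with adjusted p of 0.000121, 0.000268 and 0.00103. Of the regulators of HIF, 3 of 9 (33.3%) rose in liver and 1 of 10 (10%) in lung, with 0 falls. These were Eloc, of the complex that degrades HIF alpha (0.50 ± 0.09 in liver, 0.28 ± 0.09 in lung), the HIF partner Arnt (0.46 ± 0.09 in liver) and the asparaginyl hydroxylase Hif1an (0.49 ± 0.10 in liver). In lung Cul2 (0.24 ± 0.10) and Arnt (0.16 ± 0.08) were next in p and did not pass.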

How the data were processed

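RNA was sequenced from liver and lung, 3 libraries in each of 4 groups. The authors deposited raw whole-number counts, with 1 table holding 55414 Ensembl identifiers and 12 libraries. Libraries were made with a stranded kit, per the labels' protocols. FastQC, STAR 2.7.10a, featureCounts, DESeq2 and the build mm39 are named, with no role or order, per the submitters' processing notes. Which annotation release and strand setting were used, and how multi-mapping reads were treated, is not given in the sources used here. Columns were matched to samples by the library names in the labels. Each of the 32 symbols was matched to 1 identifier; Aldoa had a further one with 0 to 18 counts, which was not used. Of the 77 entries of other pathway lists all matched, and of 64 marker entries 63 did.

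The tests ran in edgeR 4.0.16 under R 4.3.3: low genes were filtered by group (at least 10 counts, and 15 in total), TMM scaling was computed within each organ, and each organ's CLP libraries were compared with its sham libraries by the robust quasi-likelihood test, two-sided, with Benjamini-Hochberg adjustment over all genes tested and a threshold of 0.05. The organ difference used all 12 libraries in 1 model. The standard error is the size of the log2 fold change over the square root of F, an approximation. Replicate pairs gave a chi-square of 5.28 to 37.6 per degree of freedom, so none was counted as 1 sample. Alternatives used DESeq2 1.42.0, limma 3.58.1 (voom), other scalings, no filter, a replicate block and each library left out. The procedure was tested on simulated data.

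Shares within enzyme families used union exon lengths of GENCODE M21 (GRCm38), and promoters came from RefSeq (GRCm38.p6). Neither is the build of the counts, so lengths are approximate. The same annotation showed exons on the other strand shared with a protein-coding gene for Hk3, Pfkp, Aldoa, Tpi1, Gapdh, Ankrd37, Mxi1 and Egln2, and with a non-coding gene for Hk1, Gpi1, Slc2a1, Bnip3, Ndrg1, Higd1a and Hif1a. If strand was not used in the counting, such reads are not separable. Hif1a and Pkm share exons with a gene model on their own strand.

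Values per library are given for genes past the threshold in an organ with an absolute log2 fold change of at least 0.58 there, or past it in the organ difference. The other genes are given by value, range or count, and of each wider list the 3 genes with the lowest p per organ are named. The 32 genes, their groups, the lists and the tests were chosen with earlier results of these data known. Some genes of the wider lists are not reported here by name.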

Additional observations from a re-analysis of the deposited data

Results flagged for a closer look

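The response to CLP differed between the organs for 8 of the 32 genes, by edgeR's test of the difference itself. On the log2 scale, the lung response minus the liver response was -2.48 for Pfkfb3, -1.28 for Pfkp, -1.26 for Pkm, -1.08 for Epas1, -0.70 for Pfkfb4 and -0.56 for Mxi1. It was 0.88 for Eno1 and 0.72 for Ldha. Pfkfb3, Pfkp and Pkm rose in both organs and more in liver, where their sham levels were lower. Eno1 and Ldha rose in lung only by the test within each organ, and Epas1 and Mxi1 fell in lung only by the same test. The calls for Ldha, Pfkfb4 and Mxi1 were lost in 10, 11 and 12 of 18 alternatives.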

How the results depend on the processing

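Of the 35 calls on the 32 genes within an organ, 28 held in every alternative run and 7 were lost in at least 1 (Hk1 and Egln2 in liver, and Gpi1, Pgam1, Pfkfb4, P4ha1 and Egln1 in lung). Scaling by library totals moved the median log2 fold change of all genes to -0.21 in liver and -0.13 in lung, and upper-quartile scaling to -0.11 and -0.14, so changes in those settings are relative to these medians. Over all genes in liver, library totals gave 1690 higher and 3793 lower and upper quartiles 2122 and 3144, in place of 2647 and 2600; in lung they gave 2976 and 4848, and 2929 and 4946, in place of 3698 and 3850. The number of the 32 genes lower in liver, 0 in the report, was 5 with library totals (2 enzymes, 2 other targets), 2 with upper quartiles (1 and 1), 1 with limma-voom and 1 with no filter (1 enzyme each), and 2 in the fit on all 12 libraries (1 and 1). Leaving out 1 library gave 0 to 3 of the 32 genes, 0 to 1 enzymes and 0 to 2 other targets. Of other targets in liver, 2 were higher with no filter and in the fit on all 12 libraries, and 1 to 2 with a library left out. In lung, the fit on all 12 libraries gave 2 of the 32 genes and 1 other target lower, in place of 4 and 3. For the organ difference, 1 to 4 of the 32 genes were higher with a library left out, in place of 2.

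Directions turned only for values that had not passed. With library totals this applied in liver to Pgam1 (-0.0043) and P4ha2 (-0.15), in lung to Aldoa (-0.019) and Bnip3 (-0.037), and in the organ difference to Hk3 (0.053) and Pgk1 (0.036). With upper quartiles it applied to P4ha2 in liver (-0.047), and to Aldoa (-0.025) and Bnip3 (-0.045) in lung. Leaving out 1 library each in turn gave ranges across 0 in liver for P4ha2 (-0.081 to 0.21), Egln1 (-0.52 to 0.053), Pfkl (-0.19 to 0.89) and P4ha1 (-0.26 to 0.54), and in lung for P4ha2 (-0.085 to 0.033), Tpi1 (-0.11 to 0.045) and Bnip3 (-0.0091 to 0.17). In the organ difference such ranges were -0.51 to 0.21 for Hk1, -0.35 to 0.23 for Hk3, -0.72 to 0.35 for Pfkl, -0.28 to 0.16 for Pgk1, -0.54 to 0.58 for Slc2a1, -1.53 to 0.018 for Ankrd37, -0.23 to 0.056 for P4ha2, -0.34 to 0.23 for Egln1 and -0.037 to 0.39 for Pdk1.

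Replicate numbers are shared by the groups. Same-numbered CLP and sham libraries correlated in their deviations from the group means at 0.0708, 0.201 and 0.279 in liver. In lung the values were 0.0267, 0.175 and -0.000903. The labels give no pairing, so the main tests, the organ difference included, treated the libraries as unpaired. If pairs exist, those tests leave them out. With a replicate block, 2649 genes were higher and 2596 lower in liver (15 and 2 of the 32, with 1 enzyme lower and 2 other targets higher), and 3344 and 3526 in lung (19 and 4 of the 32). In the organ difference the block brought Slc16a3 (-1.04, edgeR adjusted p = 0.0202) and Ndrg1 (0.72, 0.036) past the threshold and lost Ldha (0.0591) and Pfkfb4 (0.0557). Same-numbered CLP libraries of liver and lung correlated at 0.216, 0.086 and 0.32, above all pairs of other numbers (at most 0.0485), and same-numbered sham libraries at -0.049, 0.046 and 0.139. The labels do not say whether they share a mouse. In liver each library correlated best with its own number, which is a hint from the data and not from the design. The cause of these differences between settings was not tested. Depth limits the low genes, such as Ankrd37, Slc16a3 and Slc2a3 in liver.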
